A study of Mus musculus with 9 samples.

Results

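The complement system is followed here in the liver through 35 genes for its components, regulators and receptors, out of 23183 gene symbols in the tables. The genes were listed by pathway role from general knowledge of complement, at a time when earlier results of these data were known. All 35 were above 0 in at least 1 liver, and 32 were above 0 in all 9 livers. RNA-Seq was performed on livers of 9 male C57BL/6J mice, an inbred strain that becomes obese on a high-fat diet, with 1 library per mouse. The ND group (mice 6, 7 and 9) was fed a normal diet with 14% fat, and the HFD group (mice 1, 2 and 3) a diet with 60% fat, each for 10 weeks. The PRF 50 group (mice 3, 9 and 10) was fed the same high-fat diet and received PRF by mouth at 50 mg/kg per day during the final 5 weeks. PRF is a polymethoxyflavone-rich fraction prepared from the leaves of Jinkyool, a citrus tree, and age was given as day 100 for all 9 mice. The HFD mice are the controls for PRF, the ND mice are the controls for the diet, and a PRF group on the normal diet was not analysed here. The numbers identify the animals of each group, and equal numbers in different groups are different mice.

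Values are log2(FPKM + 1), where FPKM is the fragment number scaled to transcript length and library size, so a difference of 1 is close to a doubling for a well-expressed gene and understates the change of a gene near 0. Relative depths, with HFD mouse 1 set to 1.0, lay between 0.963 and 1.60, and read counts were not used here. Size factors over the genes lay between 0.998 and 1.01. HFD mouse 2 had 1 extreme value, 22.44 for the small nuclear RNA gene Rnu6, and genes above 0 numbered 14372 to 14980 per liver. The livers carried the hepatocyte markers Apoa1 (12.69 to 13.50) and Ttr (11.97 to 12.84) at high values. Albumin (Alb), the main plasma protein made by hepatocytes, was listed at 0 in all 9 livers, so a value of 0 is reported only as listed at 0. Markers of immune and endothelial cells varied within groups. ND mouse 6 and HFD mouse 1 had the lowest summed FPKM of resident Kupffer cell markers in their groups, and PRF 50 mice 3 and 9 had the highest summed FPKM of acute-phase genes of all 9 livers.

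Complement is a cascade of plasma proteins that marks microbes and dying cells for removal. The classical pathway starts when C1q binds antibody or other targets and the proteases C1r and C1s cleave C4 and C2. The lectin pathway starts with mannose-binding lectins and ficolins, and the alternative pathway amplifies C3 cleavage with factor B, factor D and properdin. All routes meet at C3 and then C5, and the terminal components C6, C7, C8 and C9 assemble into a pore in the target membrane. Hepatocytes make most circulating components, whereas C1q and properdin come mainly from macrophages and other myeloid cells, in the liver chiefly the resident Kupffer cells.

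The PRF 50 livers had higher C1q, properdin, ficolin A, C6, C8 alpha, C8 beta and C9 transcripts than the HFD livers. The protease genes C1rb and C1s2 were called lower, with PRF 50 values that were listed at or near 0. Of the 33 complement genes that averaged 1 FPKM or more over the 6 mice, 9 were higher and 2 were lower at an adjusted p under 0.05. Over all 10084 genes tested in the same way, 1.43% were called higher and 2.16% lower. Groups did not overlap for 15 complement genes with higher and 4 with lower values in the PRF 50 mice, compared with 10.9% and 15.3% of all tested genes. The median log2 fold change was 0.45 over the 33 complement genes and −0.015 over all tested genes. C7 and C5ar1 were below the minimum level and were not tested. C1rb, C1s2, Cfd and C3ar1 passed the minimum only through the mice in which they were high, and so contribute to these counts by the way the filter works.

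**Figure D1:**
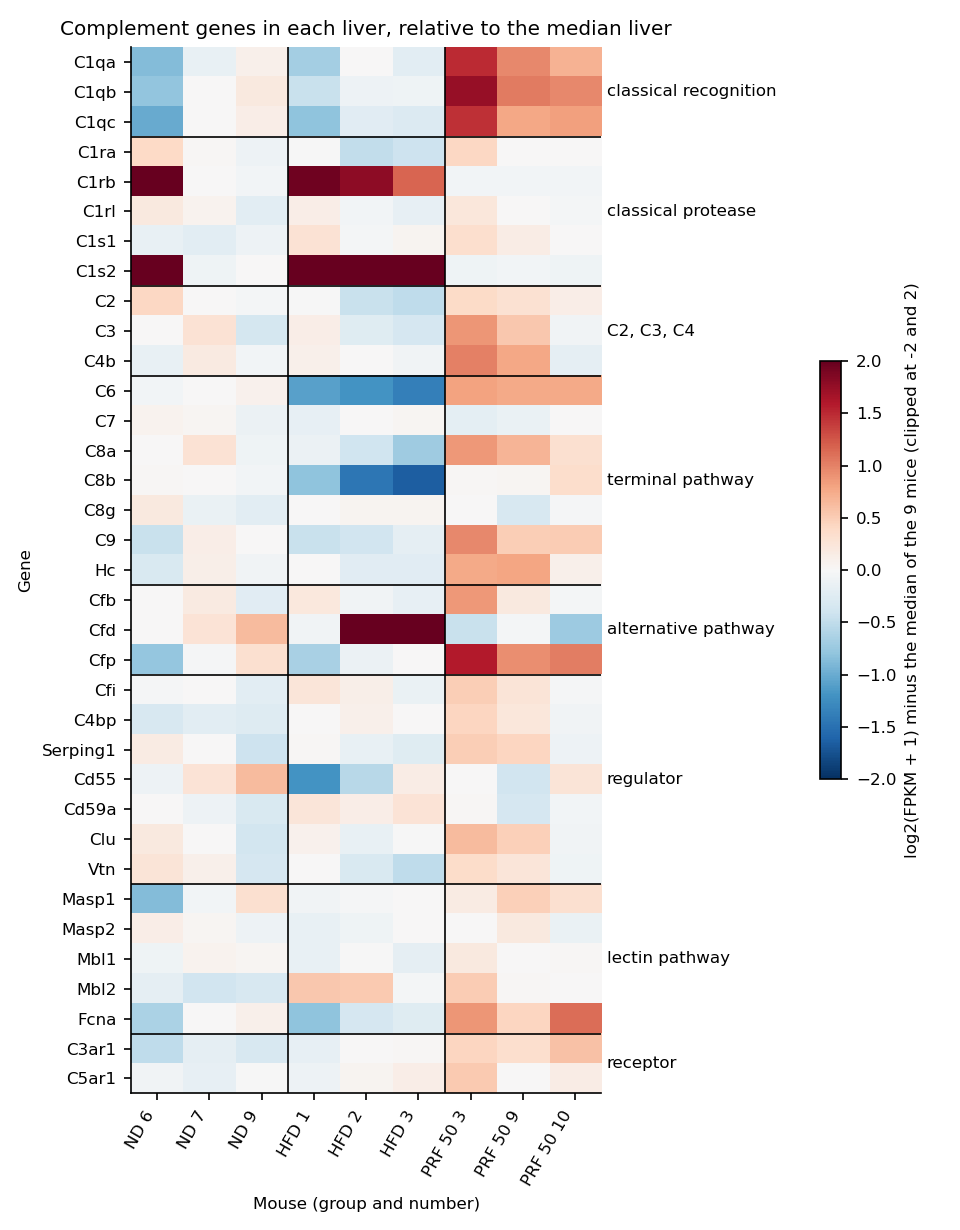
Value of each complement gene in each of the 9 livers minus the median of the 9 livers, on the log2(FPKM + 1) scale, with genes grouped by role and colours clipped at −2 and 2. The 3 C1q genes, Cfp and Fcna are high in all 3 PRF 50 mice, C6 and C8b are low in all 3 HFD mice, and C1rb and C1s2 are high in the HFD mice and ND mouse 6.

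The number of genes called depended on single mice. Without HFD mouse 2, and likewise without HFD mouse 3, 1 complement gene was called higher in PRF 50 vs. HFD, and this was C6. Without PRF 50 mouse 3, 2 were called higher, C6 and C1qb. Without HFD mouse 1, 6 were called, with C1qa, C1qb, C9 and Fcna lost and C2 gained. Without PRF 50 mouse 9, 7 were called, with C1qa and C8a lost. Without PRF 50 mouse 10, 9 were called, of which 7 were among the 9 called with all mice, with C8b and Fcna lost and C4b and Hc gained. Calls over all tested genes fell in the same fits, from 144 higher with all 6 mice to 10 without HFD mouse 2, 4 without HFD mouse 3, 13 without PRF 50 mouse 3, 68 without HFD mouse 1, 94 without PRF 50 mouse 9 and 84 without PRF 50 mouse 10. The loss of calls was thus not particular to complement genes. None of the 14 log2 fold changes called in the 3 comparisons changed sign in any fit.

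In HFD vs. ND, C6 and C8b were lower in the HFD livers, and none of the 32 tested complement genes was called higher. Of all 9978 genes tested, 0.631% were called lower and 0.702% higher. At an unadjusted p under 0.05, 4 complement genes had higher and 6 had lower values in the HFD mice, beside 780 and 724 of all 9978 genes. Groups did not overlap for 5 genes with higher values (C1s1, C1s2, Mbl2, C4bp and Cd59a) and 3 with lower values (C6, C8a and C8b), beside 10.7% and 10% of all tested genes. The median log2 fold change was −0.045 over the complement genes and −0.0091 over all tested genes. Without ND mouse 6, C1rb and C1s2 (2 genes, beside 40 of all tested genes) were called higher in the HFD mice, but they then passed the minimum level only through the HFD mice. Without HFD mouse 1, the HFD mouse with the lowest Cfd value, Cfd (1 gene, beside 80 of all) was called higher. C8b lost its call without HFD mouse 2 or 3 or any 1 of the 3 ND mice, which left 1 gene, C6, called lower, beside 17 to 44 of all tested genes in these fits and 63 with all 6 mice.

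In PRF 50 vs. ND, 1 of 29 tested complement genes was called, C6, which was higher in the PRF 50 livers. Of all 10051 genes tested, 0.159% were called higher and 0.298% lower, and limma called 0 complement genes lower. At an unadjusted p under 0.05, 12 complement genes had higher and 0 had lower values in the PRF 50 mice, beside 609 and 647 of all 10051 genes. Groups did not overlap for 12 complement genes with higher values and 0 with lower values, beside 8.19% and 11.8% of all tested genes. The call of C6 was lost (0 genes called) without ND mouse 6, ND mouse 7 or any 1 of the 3 PRF 50 mice, and was kept without ND mouse 9. Over all tested genes, 16 were called higher with all 6 mice, 4 without ND mouse 6, 1 without ND mouse 7, 2, 9 and 39 without PRF 50 mice 3, 9 and 10, and 23 without ND mouse 9. The 3 comparisons share mice (the HFD mice, the ND mice and the PRF 50 mice each enter 2 of them), so their values are given side by side and are not independent of each other.

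**Figure D2:**
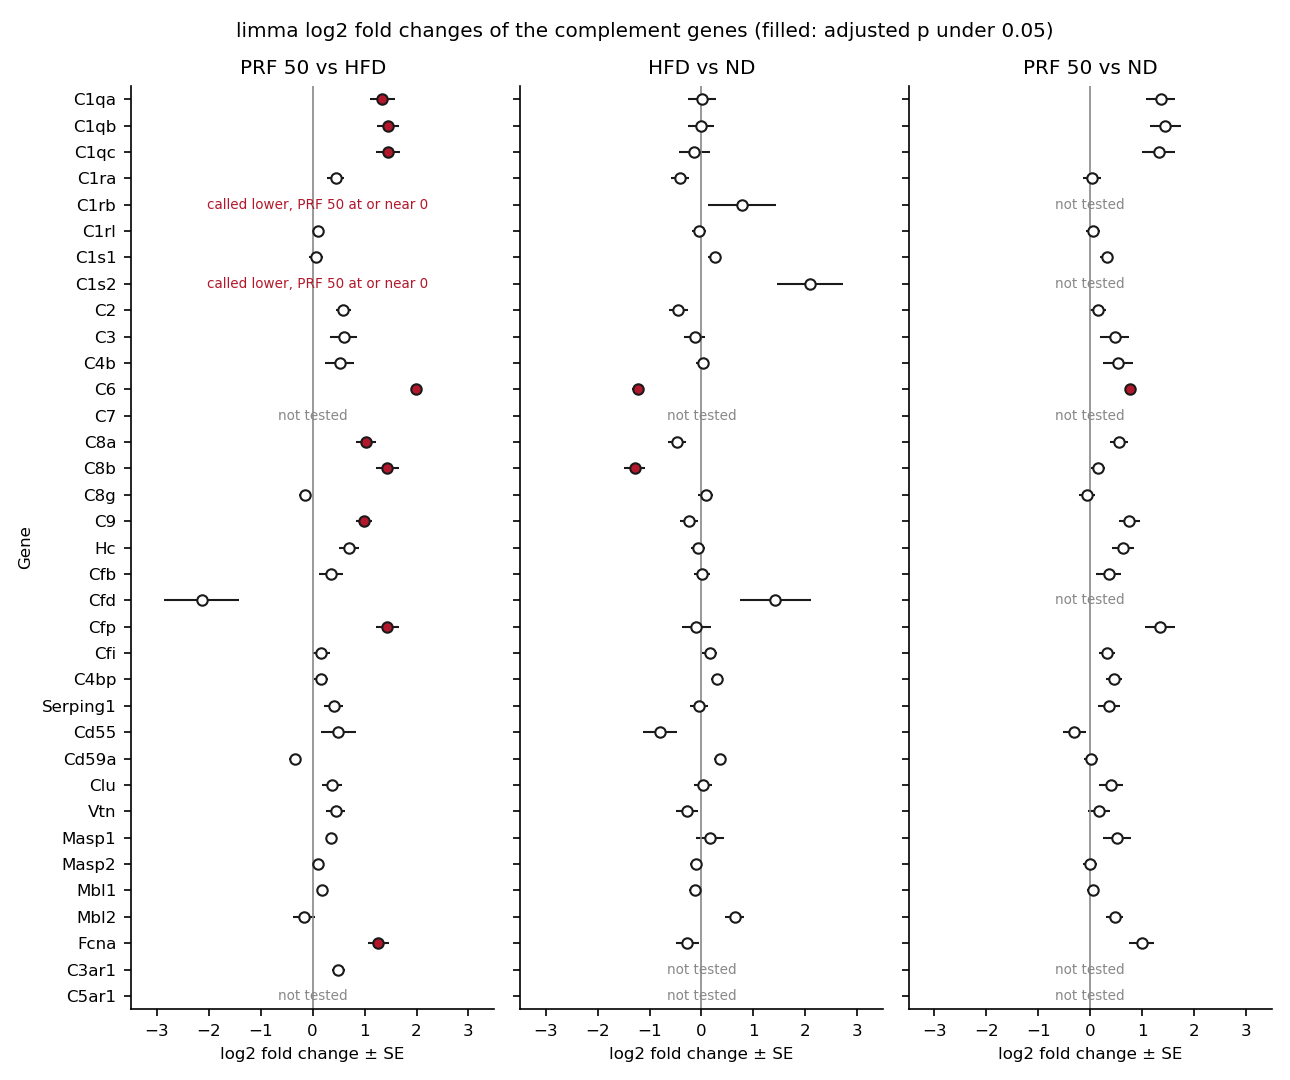
Log2 fold change ± SE from limma of each complement gene in PRF 50 vs. HFD, HFD vs. ND and PRF 50 vs. ND (3 mice per group), with filled points for an adjusted p under 0.05 and no point for C1rb and C1s2 where the PRF 50 values are at or near 0. C6 is the only gene with a filled point in all 3 panels.

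C1q, the recognition molecule of the classical pathway, is built from 3 chains encoded by C1qa, C1qb and C1qc, which lie side by side on the minus strand of chromosome 4 (GRCm38, chr4:136880129-136898803). C1qa had values of 4.08, 4.79 and 5.03 in ND mice 6, 7 and 9, of 4.25, 4.94 and 4.73 in HFD mice 1, 2 and 3, and of 6.43, 5.90 and 5.63 in PRF 50 mice 3, 9 and 10. C1qb had values of 4.18, 4.97 and 5.16 in the ND mice, 4.52, 4.87 and 4.89 in the HFD mice, and 6.71, 6.01 and 5.94 in the PRF 50 mice. C1qc had values of 4.002, 5.02 and 5.14 in the ND mice, 4.22, 4.79 and 4.74 in the HFD mice, and 6.48, 5.79 and 5.84 in the PRF 50 mice. For each chain, every PRF 50 mouse was above every ND and HFD mouse, the ND and HFD mice overlapped, and ND mouse 6 was the lowest of the 9 livers. The log2 fold changes in PRF 50 vs. HFD were 1.34 ± 0.24 (SE) for C1qa, 1.45 ± 0.22 for C1qb and 1.45 ± 0.22 for C1qc, that is, 2.54-fold, 2.74-fold and 2.73-fold. Their adjusted p-values were 0.0344, 0.0237 and 0.0251. Against the ND mice the log2 fold changes were of similar size (1.35, 1.45 and 1.31), with adjusted p-values of 0.1005, 0.0945 and 0.148, which missed the threshold. In HFD vs. ND they were 0.0090, −0.0069 and −0.14, and none of the 3 was called.

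The 3 chains kept close to each other within a liver. The highest and the lowest of the 3 differed by 0.13 to 0.31 on the log2 scale in the 9 livers, less than the difference between the PRF 50 and HFD means. Because C1q chains moved together, the promoters of C1qb and C1qc are shown, taken from RefSeq (GRCm38.p6) as the 250 bases before the start on the minus strand, at chr4:136886201-136886450 and chr4:136892915-136893164. Capitals mark matches to GAGGAA on either strand, letters at the core of sites for PU.1, a transcription factor of myeloid cells.
C1qb: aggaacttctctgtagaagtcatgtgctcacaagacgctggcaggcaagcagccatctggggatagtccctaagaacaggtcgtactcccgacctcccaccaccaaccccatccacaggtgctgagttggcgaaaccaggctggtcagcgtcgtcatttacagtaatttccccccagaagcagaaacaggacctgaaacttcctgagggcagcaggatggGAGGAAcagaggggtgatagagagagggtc
C1qc: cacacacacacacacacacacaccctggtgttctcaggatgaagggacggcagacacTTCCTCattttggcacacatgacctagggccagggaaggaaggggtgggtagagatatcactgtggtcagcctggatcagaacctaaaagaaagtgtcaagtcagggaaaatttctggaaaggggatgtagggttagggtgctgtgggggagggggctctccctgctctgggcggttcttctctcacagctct
Each of the 2 promoters held 1 match. Among 27025 promoters of the same length, 23.1% held these letters, and of the 27 complement genes with a listed promoter, 4 held them, namely Fcna, Cd59a, C1qb and C1qc. A match describes the letters only, and binding was not measured.

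Properdin (Cfp), the stabiliser of the alternative pathway convertase, had values of 2.66, 3.41 and 3.75 in the ND mice, 2.78, 3.31 and 3.43 in the HFD mice, and 5.02, 4.36 and 4.45 in the PRF 50 mice. Ficolin A (Fcna), a soluble lectin made by macrophages and other myeloid cells, had values of 4.12, 4.76 and 4.86 in the ND mice, 3.96, 4.43 and 4.51 in the HFD mice, and 5.64, 5.19 and 5.87 in the PRF 50 mice. Both genes were thus highest in the 3 PRF 50 mice without overlap, and lowest in ND mouse 6 or HFD mouse 1. Relative to the HFD mice, Cfp rose by 1.44 ± 0.22 (log2 fold change ± SE, 2.70-fold) and Fcna by 1.27 ± 0.21 (2.40-fold), with adjusted p-values of 0.0251 and 0.0289. The 4 complement genes assigned to macrophages (C1qa, C1qb, C1qc and Cfp) were all called higher, beside 1.43% of all tested genes, with a median log2 fold change of 1.44.

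**Figure D3:**
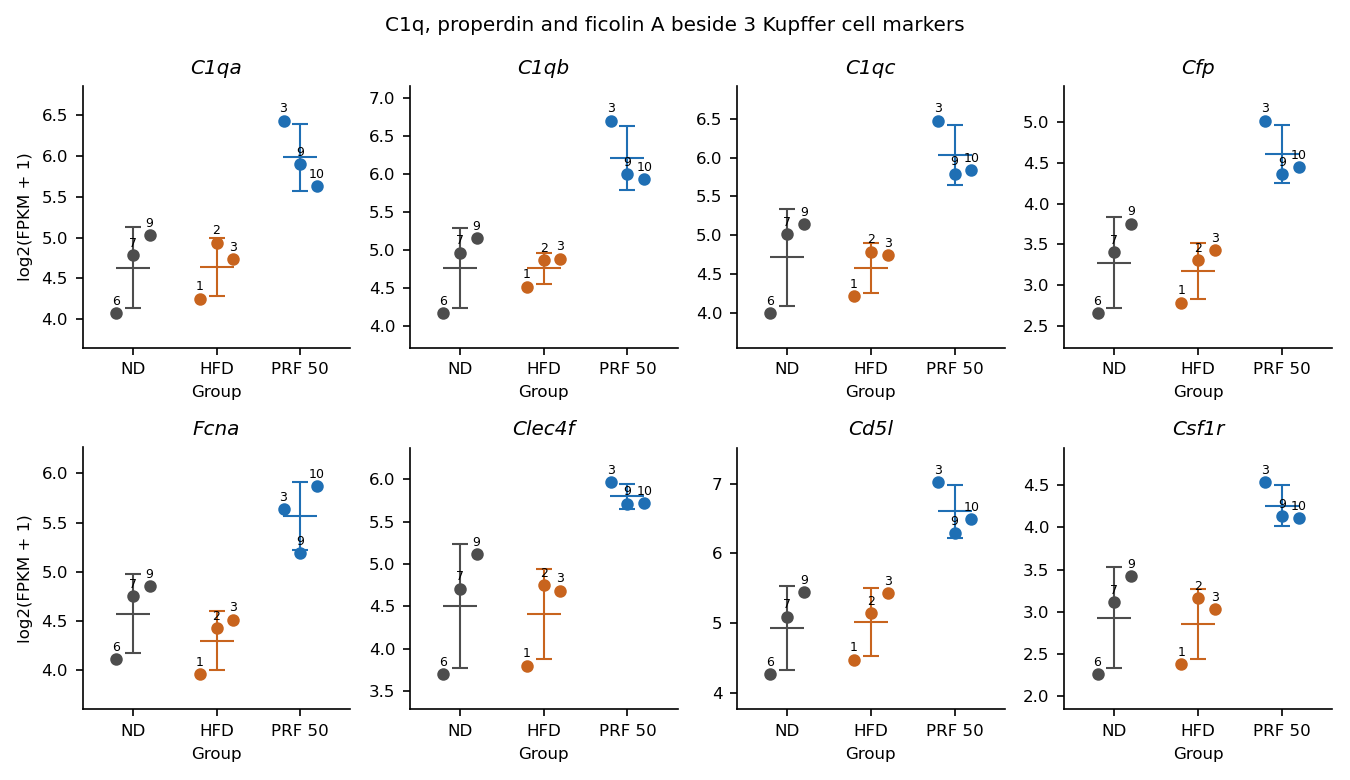
Values of C1qa, C1qb, C1qc, Cfp and Fcna, and of Clec4f, Cd5l and Csf1r from the Kupffer cell list, on the log2(FPKM + 1) scale in each mouse (points with mouse numbers), with the group mean (wide line) and SD (bars, n = 3). In all 8 panels the 3 PRF 50 mice are above the other 6 livers, and ND mouse 6 and HFD mouse 1 are the lowest of their groups.

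Genes listed as markers of resident Kupffer cells moved with these genes. The list also holds genes that other myeloid cells express, such as Lyz2, Tyrobp, Fcer1g and Csf1r. Of 18 listed markers, all 18 were tested in PRF 50 vs. HFD and 10 were called higher, beside 1.43% of all tested genes. The 10 were Adgre1, Cd163, Cd5l, Cd68, Clec4f, Csf1r, Fcer1g, Mpeg1, Timd4 and Vsig4. Spic, which was not called, passed the minimum level only through the PRF 50 mice (3.53 FPKM, compared with 0.679 in the HFD mice). The median log2 fold change of the 18 markers was 1.27. The most abundant was Cd5l, a scavenger receptor family protein secreted by macrophages, followed by Slc40a1, the iron exporter, and none of the 18 was listed at 0 in all livers. Cd5l rose by 1.59 and Clec4f, a lectin that defines mouse Kupffer cells, by 1.38 on the log2 scale. The summed FPKM of the list was 159.6, 252 and 325 in ND mice 6, 7 and 9, 174, 266 and 268 in HFD mice 1, 2 and 3, and 792, 458 and 548 in PRF 50 mice 3, 9 and 10. The summed FPKM of the 3 C1q chains in the same order was 48.0, 88.3 and 101, then 57.6, 84.6 and 80.0, then 277, 176 and 165. As the log2 ratio of the second sum to the first, this gave −1.73, −1.51 and −1.69 in the ND mice, −1.59, −1.65 and −1.74 in the HFD mice, and −1.52, −1.38 and −1.73 in the PRF 50 mice. Thus C1q relative to the Kupffer cell list overlapped between the 3 groups, whereas C1q itself did not overlap between the PRF 50 mice and the others. The same ratio for Cfp was −4.91, −4.72 and −4.71 in the ND mice, −4.89, −4.901 and −4.78 in the HFD mice, and −4.66, −4.55 and −4.72 in the PRF 50 mice, so that Cfp relative to the list was above all HFD mice in the PRF 50 mice and overlapped with the ND mice. Between the diets, 0 of 17 tested markers were called by limma (1 lower at an unadjusted p under 0.05, beside 724 of all 9978 genes). Against the ND mice, 0 of 18 were called (16 higher at an unadjusted p under 0.05, beside 609 of all 10051 genes). In these bulk samples, fewer cells of a type and less RNA per cell cannot be told apart. The part of Kupffer cell or other myeloid cell number in the C1q and Cfp values was not tested.

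Of the other cell type lists, none had a gene called higher in PRF 50 vs. HFD, where 854 of all 10084 genes had higher and 1185 lower values at an unadjusted p under 0.05. Of recruited macrophage markers, 3 of 10 were tested and 0 were called in PRF 50 vs. HFD by limma (1 had higher values at an unadjusted p under 0.05, Ly6c2, which passed the minimum level only through the PRF 50 mice), with Cd9 and S100a4 the most abundant, and Cd9 was called lower in HFD vs. ND, by −0.99 on the log2 scale. Of sinusoidal endothelial markers, led by Clec4g and Fcgr2b, 0 of 9 were called (0 at an unadjusted p under 0.05), and the median log2 fold change was 0.46. Of stellate cell markers, led by Dcn and Ecm1, 0 of 9 were called (2 lower at an unadjusted p under 0.05, of which Col1a1 passed the minimum level only through the HFD mice), with a median of 0.14. For cholangiocytes 1 of 5 markers was tested, Spp1, and it was not called, and none of 11 T, NK and B cell markers, led by Cd79b and Nkg7, reached the minimum level in PRF 50 vs. HFD. Of 10 tested hepatocyte markers, 0 were called (1 lower at an unadjusted p under 0.05), with a median of 0.16. In HFD vs. ND, where C6 and C8b were called lower, 8 of 10 hepatocyte markers and 8 of 9 sinusoidal markers had negative log2 fold changes, beside 5158 of all 9978 genes. The medians of these 2 lists were −0.22 and −0.74. In each of these lists limma called 0 (3 lower at an unadjusted p under 0.05, beside 724 of all 9978 genes). The part of these cell types in the C6 and C8b values was not tested.

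The proteases C1r and C1s, which carry the signal from C1q to C4 and C2, are encoded with their paralogs in a cluster of 143 kb on chromosome 6 (GRCm38, chr6:124493113-124636085). C1ra and C1s1 are the main genes, C1rl encodes a C1r-like protease, and C1rb and C1s2 are rodent paralogs of C1ra and C1s1. C1rl ranged from 5.58 to 6.02, C1ra from 5.67 to 6.58 and C1s1 from 7.14 to 7.69 over the 9 livers, and none of these 3 was called in any comparison. C1s2 had values of 2.71, 0 and 0.08 in ND mice 6, 7 and 9 and of 3.13, 2.96 and 2.96 in HFD mice 1, 2 and 3, and it was listed at 0, 0.03 and 0 in PRF 50 mice 3, 9 and 10. C1rb had values of 2.64, 0.05 and 0 in the ND mice and 1.99, 1.84 and 1.21 in the HFD mice, and was listed at 0 in all 3 PRF 50 mice. Both genes were thus at 1 or more in 4 livers, the 3 HFD livers and that of ND mouse 6, and listed at or near 0 in the other 5. The ND group was split, with mouse 6 near the HFD values and mice 7 and 9 near the PRF 50 values. The adjusted p in PRF 50 vs. HFD was 5.13e-05 for C1s2 and 0.0150 for C1rb, with the limit that both passed the minimum level only through the HFD mice, in which they averaged 7.10 and 2.29 FPKM. The call of C1s2 was kept without any 1 mouse, and that of C1rb was lost without PRF 50 mouse 3 (adjusted p = 0.0520), which left 1 gene called lower. Without HFD mouse 1 or 2, C1rb was below the minimum level and was not tested, which left 2 genes called lower without mouse 1, where Cfd was gained, and 1 without mouse 2.

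**Figure D4:**
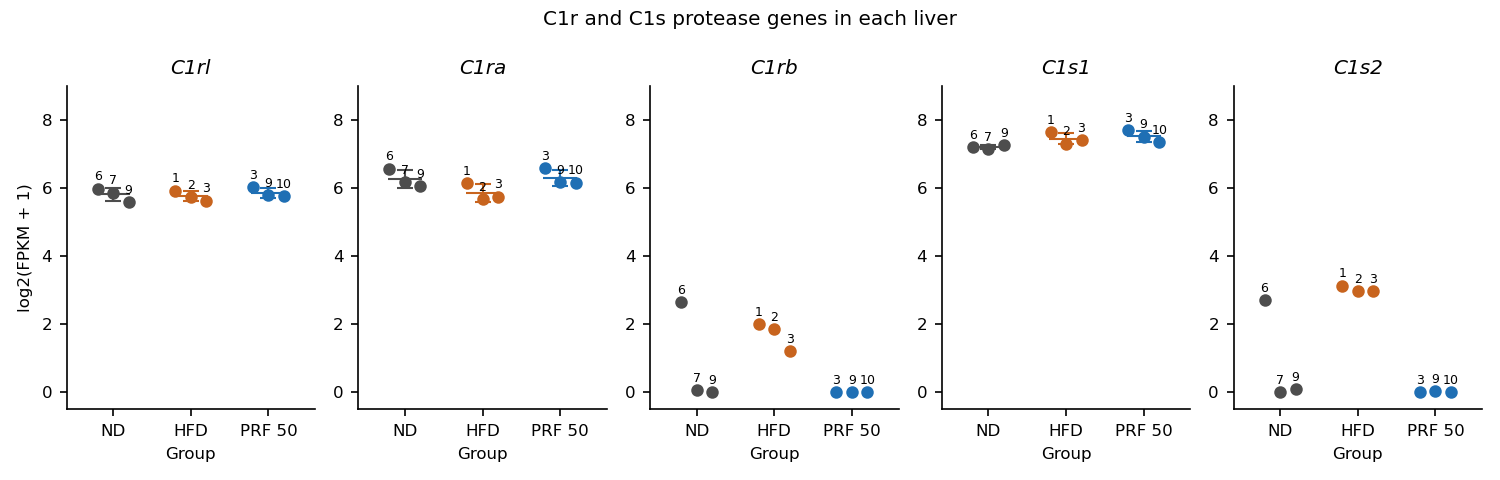
Values of the 5 C1r and C1s protease genes on the log2(FPKM + 1) scale in each mouse (points with mouse numbers), with the group mean (wide line) and SD (bars, n = 3) where no liver is listed at 0. C1rb and C1s2 are above 1 in the 3 HFD mice and ND mouse 6 and under 0.15 in the other 5 livers, while C1rl, C1ra and C1s1 lie between 5.58 and 7.69 in all 9.

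At cut-offs of 1 and 0.15, the pattern of C1rb and C1s2 was shared by no other gene in the tables. The division of the livers was taken from C1s2 itself, and other cut-offs were not tried. Of 23183 gene symbols, 2 had values of at least 1 in those 4 livers and under 0.15 in the other 5, and these were C1rb and C1s2, while 0 had the reverse pattern. For comparison, 49 genes had every value either at or above 1 or under 0.15 with both kinds present, over any division of the livers. Within 100 kb of the cluster, 6 other genes were above 0 (Pex5, Clstn3, Lpcat3, Emg1, Phb2 and Ptpn6), and 0 of them showed the pattern. These 6 genes and the count were looked up after the values of C1rb and C1s2 had been seen. The mean of the 4 livers minus that of the other 5 ranged from −0.088 for Emg1 to 1.001 for Clstn3, a gene that was itself called lower in PRF 50 vs. HFD, from 2.14, 2.88 and 3.06 among HFD livers to 1.199, 1.55 and 0.76 among PRF 50 livers. Clstn3 had values of 2.13, 2.15 and 2.10 in ND mice 6, 7 and 9, so ND mouse 6 did not stand apart as it did for C1rb and C1s2.

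The sequences of the paralogs bear on these values, since reads can be shared between near-identical transcripts. The longest coding transcripts of C1ra and C1rb were identical at 98.0% of aligned bases, and those of C1s1 and C1s2 at 95.9%. Of all stretches of 50 bases in C1rb transcripts, 59.2% also occurred in C1ra transcripts, and 26.9% of those of C1s2 occurred in C1s1 transcripts. C1s2 made up 3.65% of the summed FPKM of C1s1 and C1s2 in ND mouse 6 and 3.75%, 4.12% and 3.85% in HFD mice 1, 2 and 3. C1rb made up 5.28% of the sum with C1ra in ND mouse 6 and 4.08%, 4.91% and 2.43% in the HFD mice. Both shares were at most 0.051% in the other 5 livers. How the authors' software divided shared reads was not tested, and single values of C1rb and C1s2 are uncertain for this reason. The promoters of C1rb (plus strand, chr6:124570180-124570429) and C1s2 (minus strand, chr6:124636086-124636335) are shown because the genes were at 1 or more in the same 4 livers. Capitals mark matches on either strand to GTTAAT (part of the HNF1 site, bound in hepatocytes), TTGCNNAA (C/EBP) and TTCNNNGAA (STAT).
C1rb: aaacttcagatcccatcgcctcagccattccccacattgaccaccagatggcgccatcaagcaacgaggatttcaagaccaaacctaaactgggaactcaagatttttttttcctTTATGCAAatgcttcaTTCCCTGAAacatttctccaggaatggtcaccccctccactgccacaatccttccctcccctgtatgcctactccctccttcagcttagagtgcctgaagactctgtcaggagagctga
C1s2: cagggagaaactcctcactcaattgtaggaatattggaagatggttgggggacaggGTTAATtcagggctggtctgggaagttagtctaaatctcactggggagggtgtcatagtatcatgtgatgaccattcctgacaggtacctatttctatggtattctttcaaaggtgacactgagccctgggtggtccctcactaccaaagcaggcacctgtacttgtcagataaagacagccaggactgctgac
C1rb held 1 C/EBP match and 1 STAT match, C1s2 held 1 HNF1 match, and no matches overlapped. Over the 27025 promoters, 6.52% held GTTAAT, 9.55% held TTGCNNAA and 7.18% held TTCNNNGAA. The pair shared none of the motifs searched.

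The terminal components form the membrane attack complex, and this group held the only complement genes called in HFD vs. ND. C6, which binds C5b to start the complex, had values of 5.63, 5.69 and 5.78 in ND mice 6, 7 and 9, of 4.61, 4.49 and 4.32 in HFD mice 1, 2 and 3, and of 6.503, 6.46 and 6.45 in PRF 50 mice 3, 9 and 10. The 3 groups were separate, with the HFD mice lowest, the ND mice between and the PRF 50 mice highest, and the SDs within groups were 0.15, 0.073 and 0.031. C6 fell by 1.23 ± 0.11 (SE) on the log2 scale in HFD vs. ND, with an adjusted p of 0.00395. It rose by 1.99 ± 0.096 in PRF 50 vs. HFD (3.98-fold, adjusted p = 0.000293). Against the ND mice it was higher by 0.77 ± 0.099 (1.70-fold, adjusted p = 0.0269), and this value ranged from 0.73 to 0.81 when each mouse was left out, with the call lost in 5 of those 6 fits. The calls of C6 in the other 2 comparisons were kept without any 1 mouse.

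C8 consists of an alpha, a beta and a gamma chain, and C8a and C8b are neighbours on chromosome 4 (chr4:104766317-104876398), on opposite strands. C8b had values of 7.18, 7.17 and 7.11 in the ND mice, 6.37, 5.72 and 5.51 in the HFD mice, and 7.19, 7.201 and 7.52 in the PRF 50 mice. All 3 HFD mice were below all other livers, and the ND and PRF 50 mice were separated by less than 0.01 at their nearest values. C8b fell by 1.29 ± 0.21 in HFD vs. ND and rose by 1.44 ± 0.22 in PRF 50 vs. HFD (2.71-fold), with adjusted p-values of 0.0309 and 0.0249, and in PRF 50 vs. ND its adjusted p was 0.660. C8a had values of 7.52, 7.81 and 7.44 in the ND mice, 7.41, 7.12 and 6.81 in the HFD mice, and 8.39, 8.21 and 7.84 in the PRF 50 mice. The order of the groups was that of C6 without overlap, and the rise of 1.03 ± 0.19 in PRF 50 vs. HFD (2.04-fold) was called at an adjusted p of 0.0371. The differences of C8a in the other 2 comparisons were not called (adjusted p = 0.271 in HFD vs. ND and 0.253 in PRF 50 vs. ND). The gamma chain gene C8g, on chromosome 2, ranged from 8.42 to 8.94 over the 9 livers and was not called in any comparison.

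C9, which polymerises into the pore, had values of 7.58, 8.16 and 8.02 in the ND mice, 7.57, 7.64 and 7.85 in the HFD mice, and 8.99, 8.51 and 8.54 in the PRF 50 mice. The PRF 50 mice were above all other livers, and the ND and HFD mice overlapped. C9 rose by 0.99 ± 0.16 in PRF 50 vs. HFD (1.99-fold, adjusted p = 0.0272) and was not called in PRF 50 vs. ND (adjusted p = 0.173). C5, the source of the fragment that starts the complex, is encoded in the mouse by Hc, which had values of 6.92, 7.34 and 7.16 in the ND mice, 7.22, 6.998 and 6.99 in the HFD mice, and 7.98, 8.01 and 7.33 in the PRF 50 mice. PRF 50 mouse 10 was close to the highest ND and HFD mice, and Hc was not called with all 6 mice (adjusted p = 0.0979) but was called without this mouse. C7 had values of 0.49, 0.46 and 0.31 in the ND mice, 0.26, 0.42 and 0.45 in the HFD mice, and 0.22, 0.28 and 0.42 in the PRF 50 mice, below the minimum level, in overlapping groups. Of the 6 tested terminal genes 4 were called higher in PRF 50 vs. HFD, beside 1.43% of all tested genes, with a median log2 fold change of 1.01. In HFD vs. ND 2 of 6 were called lower, beside 0.631% of all tested genes, with a median of −0.35.

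**Figure D5:**
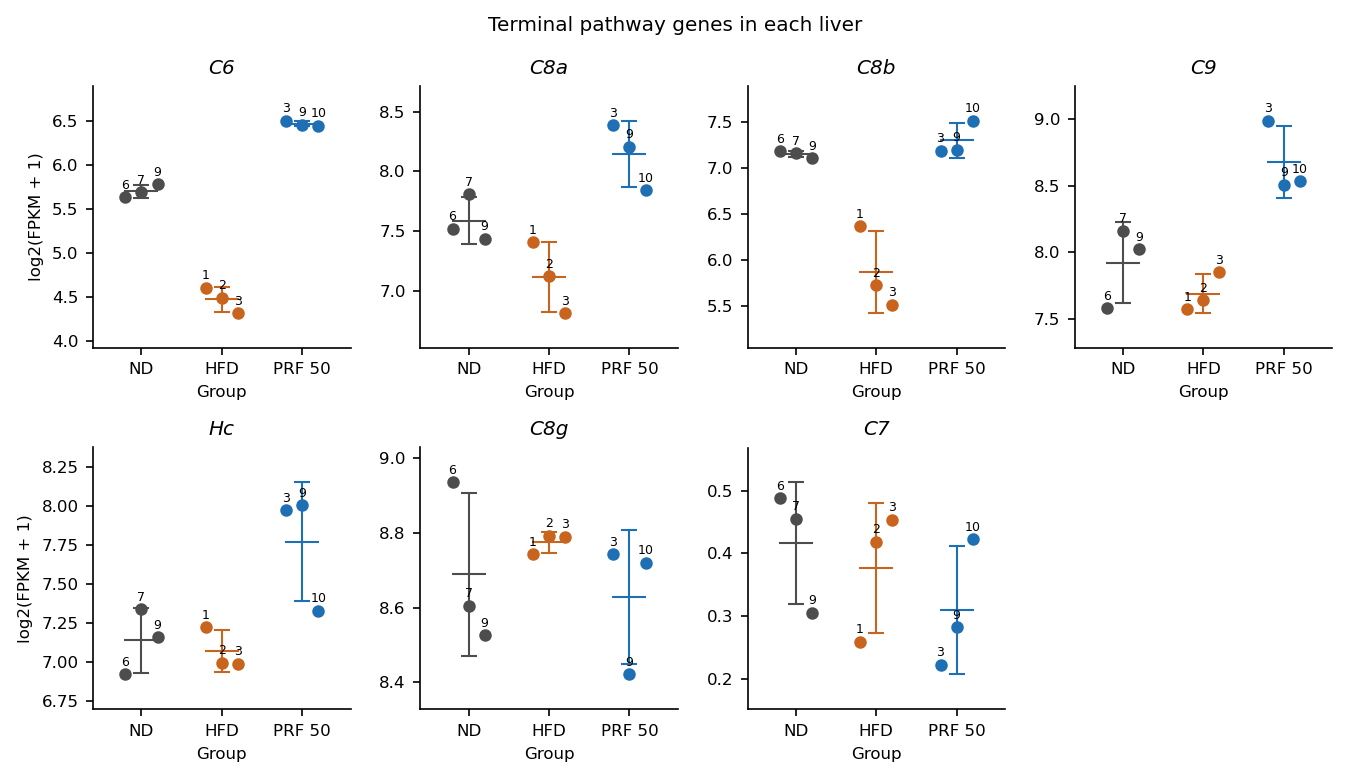
Values of the 7 terminal pathway genes on the log2(FPKM + 1) scale in each mouse (points with mouse numbers), with the group mean (wide line) and SD (bars, n = 3); the axis range differs between panels. C6 and C8b are lowest in the HFD mice without overlap, and C6, C8a and C9 are highest in the PRF 50 mice without overlap, while C8g and C7 overlap between ND and the other groups.

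The promoters of C6 (plus strand, chr15:4726960-4727209), C8a (minus strand, chr4:104876399-104876648) and C8b (plus strand, chr4:104766067-104766316) are shown because these genes had the same order of groups or were lowest in the HFD mice. Capitals mark the motifs spelled out above.
C6: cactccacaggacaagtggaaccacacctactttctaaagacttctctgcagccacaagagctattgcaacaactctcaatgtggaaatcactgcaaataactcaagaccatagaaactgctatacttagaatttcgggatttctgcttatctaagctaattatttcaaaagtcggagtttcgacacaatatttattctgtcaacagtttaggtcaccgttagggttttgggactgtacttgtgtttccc
C8a: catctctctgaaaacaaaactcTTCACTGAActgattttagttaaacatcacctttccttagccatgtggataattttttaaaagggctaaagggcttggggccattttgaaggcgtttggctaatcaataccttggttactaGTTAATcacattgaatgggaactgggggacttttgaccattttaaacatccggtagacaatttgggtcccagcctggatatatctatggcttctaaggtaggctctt
C8b: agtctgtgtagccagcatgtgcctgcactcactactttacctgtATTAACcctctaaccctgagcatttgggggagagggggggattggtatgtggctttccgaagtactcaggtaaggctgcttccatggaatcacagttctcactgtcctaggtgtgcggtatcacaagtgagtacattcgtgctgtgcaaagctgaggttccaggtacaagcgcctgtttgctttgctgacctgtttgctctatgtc
C8a held 1 HNF1 match and 1 STAT match, C8b held 1 HNF1 match and C6 held 0 matches of the 4 motifs. GTTAAT was found in the promoters of 9 of the 27 complement genes with a listed promoter (C4bp, Hc, C8b, C8a, C1ra, C1s2, Vtn, C7 and Cfp). These 9 include genes called in both directions and genes not called.

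C3 and C4 are cleaved to tag targets, and C2 and factor B supply the proteases of the C3 convertases. C3 had values of 9.79, 10.08 and 9.44 in the ND mice, 9.92, 9.54 and 9.45 in the HFD mice, and 10.67, 10.33 and 9.71 in the PRF 50 mice. C4b had values of 7.21, 7.53 and 7.29 in the ND mice, 7.46, 7.35 and 7.28 in the HFD mice, and 8.36, 8.13 and 7.16 in the PRF 50 mice. Factor B (Cfb) had values of 8.56, 8.75 and 8.34 in the ND mice, 8.77, 8.50 and 8.41 in the HFD mice, and 9.43, 8.76 and 8.53 in the PRF 50 mice. For C3 and C4b, PRF 50 mice 3 and 9 were above all ND and HFD mice and PRF 50 mouse 10 was among or below them, so the groups overlapped. None of the 3 was called in PRF 50 vs. HFD (adjusted p = 0.249, 0.364 and 0.464), and C4b was called without PRF 50 mouse 10. C2 had values of 5.76, 5.35 and 5.31 in the ND mice, 5.34, 4.90 and 4.84 in the HFD mice, and 5.73, 5.65 and 5.48 in the PRF 50 mice, the last 2 groups without overlap, and was not called (adjusted p = 0.0794), although it was without HFD mouse 1 and with quantile normalization. C2 and Cfb share exons with the readthrough gene Gm20547, and 34.6% of the 50-base stretches of C4b also occur in C4a, so reads of these genes can be shared.

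Acute-phase genes, which hepatocytes make in response to inflammatory cytokines, divided the PRF 50 mice in the same way when summed, though not gene by gene. Their summed FPKM was 13744, 15262 and 12747 in the ND mice, 15750.3, 14028 and 11740 in the HFD mice, and 46297, 31450 and 13889 in PRF 50 mice 3, 9 and 10. Hpx and Hp, carriers of heme and hemoglobin, were the most abundant, and none of the 18 genes was listed at 0 in all livers. Saa1, a serum amyloid A gene, had values of 12.46 and 11.52 in PRF 50 mice 3 and 9 and of 6.73 in mouse 10, compared with 6.49 to 8.43 in the ND and HFD mice. By contrast, Crp had values of 8.34, 8.34 and 8.25 in PRF 50 mice 3, 9 and 10. For 3 of the 18 genes, Orm1, Fgb and Fgg, all PRF 50 mice, mouse 10 included, were above all HFD mice. None (0) of the 18 genes was called by limma in PRF 50 vs. HFD (5 higher at an unadjusted p under 0.05, beside 854 of all 10084 genes). Their median log2 fold change was 0.73. Between the diets, HFD vs. ND, 2 were called higher, beside 0.702% of all tested genes, namely Lcn2 by 2.29 and Serpina3n by 0.77 on the log2 scale. The neutrophil markers S100a8 and S100a9 were the most abundant of their list, whose summed FPKM was 56.9, 19.0 and 3.70 in PRF 50 mice 3, 9 and 10 and 2.84 to 9.49 in the other livers. In PRF 50 vs. HFD, limma called 0 of the 2 tested (1 higher at an unadjusted p under 0.05, beside the same 854 of 10084 genes). Among the terminal genes, C8a (8.39, 8.21 and 7.84) and Hc (7.98, 8.01 and 7.33) were lowest in PRF 50 mouse 10 of mice 3, 9 and 10, and C9 (8.99, 8.51 and 8.54) was highest in mouse 3. In the same order, C6 was 6.503, 6.46 and 6.45, and C8b was 7.19, 7.201 and 7.52. The part of an acute-phase response in the values of the complement genes was not tested.

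Factor D (Cfd), the protease that cleaves factor B and that is made mainly by adipocytes, had values of 0.73, 1.01 and 1.37 in the ND mice, 0.66, 2.87 and 3.85 in the HFD mice, and 0.28, 0.69 and 0 in the PRF 50 mice. It was high in HFD mice 2 and 3, whereas HFD mouse 1 was within the range of the other groups. Cfd was not called in PRF 50 vs. HFD (adjusted p = 0.155) or HFD vs. ND (adjusted p = 0.389). It was called in each without HFD mouse 1, a fit that keeps only the HFD mice in which it was high. In PRF 50 vs. HFD, Cfd passed the minimum level only through the HFD mice (6.75 FPKM, compared with 0.273 in the PRF 50 mice). These calls are thus no support for a difference. Adipocyte markers had a summed FPKM of 23.1, 21.2 and 27.3 in the ND mice, 15.0, 47.0 and 46.7 in the HFD mice, and 17.0, 26.0 and 26.2 in the PRF 50 mice. The most abundant of the 7 were Fabp4 and Lipe, and Plin1 and Lep were listed at 0 in all 9 livers. Adipoq was above 0 in HFD mice 2 and 3 alone (0.35 and 0.14), whereas Retn was above 0 in ND mouse 7 alone (0.67). Of 3 tested markers, Cidec, a lipid droplet protein that fatty livers also express, was called lower in PRF 50 vs. HFD (adjusted p = 0.0335), but it averaged 9.38 FPKM in the HFD mice and 0.404 in the PRF 50 mice, and so passed the minimum level only through the HFD mice. The part of adipose tissue in the Cfd values was not tested.

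The lectin pathway genes other than Fcna were not called in any comparison. The mannose-binding lectins Mbl1 and Mbl2 ranged from 7.72 to 8.10 and from 8.24 to 9.16 over the 9 livers, and the associated proteases Masp1 and Masp2 from 3.57 to 4.92 and from 6.92 to 7.26. Mbl2 had values of 8.45, 8.24 and 8.30 in the ND mice and 9.16, 9.15 and 8.58 in the HFD mice, without overlap, at an adjusted p of 0.167. The regulators were likewise not called. Vitronectin (Vtn) and clusterin (Clu), which bind terminal complexes in plasma, ranged from 9.69 to 10.57 and from 9.08 to 10.08, and Vtn had the highest median of the 35 genes (10.20). The C1 inhibitor (Serping1) ranged from 8.22 to 9.12, factor I (Cfi), which cleaves C3b and C4b, from 8.17 to 8.88, and its cofactor C4bp from 8.08 to 8.83. On cell membranes, Cd59a, which blocks C9, ranged from 5.72 to 6.34, and Cd55, which speeds the decay of convertases, from 0.74 to 2.57. Cd55 and Cd59a have the close paralogs Cd55b and Cd59b, which shared 7.998% and 3.87% of their 50-base stretches. Of the 7 regulators, 6 had positive and 1 (Cd59a) a negative log2 fold change in PRF 50 vs. HFD, beside 4740 and 5344 of all 10084 genes. The groups overlapped for the 6 and did not overlap for Cd59a. The median log2 fold change of the 7 regulators was 0.37.

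The receptors for the anaphylatoxins C3a and C5a, found on myeloid cells, were low in these livers. C3ar1 had values of 0.27, 0.61 and 0.46 in the ND mice, 0.62, 0.78 and 0.80 in the HFD mice, and 1.21, 1.12 and 1.37 in the PRF 50 mice. The 3 groups did not overlap, although ND mouse 7 (0.61) and HFD mouse 1 (0.62) were close. In PRF 50 vs. HFD, the comparison in which it reached the minimum level, its adjusted p by limma was 0.0734. It was called there with eBayes without a trend. C3ar1 reached this level only through the PRF 50 mice (1.35 FPKM, compared with 0.666 in the HFD mice), so this call is no support for a difference. C5ar1 had values of 0.27, 0.17 and 0.33 in the ND mice, 0.24, 0.39 and 0.47 in the HFD mice, and 0.85, 0.34 and 0.49 in the PRF 50 mice, in overlapping groups. Among 20 other complement genes, 12 were tested in PRF 50 vs. HFD and 2 were called higher, beside 1.43% of all tested genes. These were Vsig4, by 1.27 on the log2 scale (limma, adjusted p = 0.0182), and Susd4, by 0.87 (adjusted p = 0.0499, just under the threshold). Vsig4 is the C3b receptor of Kupffer cells and is also in the Kupffer cell list, and Susd4 is a membrane inhibitor of complement. The most abundant of the 20 were Calr (7.76 to 8.41), a chaperone that binds C1q, and Cpn1 (6.65 to 7.13), a subunit of the carboxypeptidase that inactivates anaphylatoxins, and neither was called. Cd55b and Fcnb were listed at 0 in all 9 livers. In HFD vs. ND and in PRF 50 vs. ND, 0 of 12 tested genes of this list were called by limma. At an unadjusted p under 0.05, 1 was lower in HFD vs. ND, beside 724 of all 9978 genes. In PRF 50 vs. ND, 3 were higher and 1 lower at this level, beside 609 and 647 of all 10051 genes.

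The genes were also grouped by source, with the 7 terminal genes, which hepatocytes also make in large part, listed apart from the other hepatocyte genes. Of 18 other hepatocyte genes tested in PRF 50 vs. HFD, 0 were called higher by limma and 2 lower (C1rb and C1s2), beside 1.43% and 2.16% of all tested genes. C1rb and C1s2 passed the minimum level only through the HFD mice, so their 2 calls are no result about hepatocyte genes. The median log2 fold change of the 18 genes was 0.27, compared with 1.44 for the 4 macrophage genes, 1.01 for the 6 terminal genes and −0.015 for all tested genes. C1rb and C1s2 were not tested in PRF 50 vs. ND. In this comparison, the medians were 0.34 for 16 hepatocyte genes, 1.35 for the 4 macrophage genes, 0.59 for the 6 terminal genes and −0.031 for all tested genes. In HFD vs. ND, they were 0.014, −0.053, −0.35 and −0.0091. Differences between these medians were not tested. The assignment of genes to sources comes from general knowledge and was not measured in these livers.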

How the data were processed

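Sample labels assigned the 9 liver libraries to ND, HFD and PRF 50, with 3 mice in each. The members and lists were chosen with earlier results of these data known. The authors used FASTX_Trimmer and BBMap for trimming, TopHat for mapping to mm10 and Cufflinks for FPKM, and applied a geometric normalization that they ascribe to EdgeR. Tool versions and the annotation are not given in the sources used here. The authors deposited 1 log2 value per gene symbol and mouse, read here as log2(FPKM + 1), with the 1 deduced from the smallest value, 0. The library kit was directional, but whether strand was used in counting is not given in the sources used here, so C2, Hc, Masp2, Fcna, C1s1 and Cd55 may share reads with antisense genes. Depth in counts is unknown.

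Each comparison was fitted with limma 3.58.1 in R 4.3.3 (lmFit, eBayes with a trend, two-sided) on the 6 mice of 2 groups, over genes averaging 1 FPKM or more, and p-values were adjusted by Benjamini-Hochberg over all tested genes, with a threshold of 0.05. The steps were tested on simulated data. Positions and transcripts are from GENCODE on GRCm38 and promoters from RefSeq (GRCm38.p6). All 35 genes are accounted for, with every mouse given for genes called, low or at 0, and other genes were named when called or among the 2 most abundant of a list. Saa1, Adipoq, Retn and the neighbours of the C1r cluster were named after their values were seen. Alternatives were all 9 mice in 1 fit, no minimum level, no trend, a pseudocount of 0.1, a 10 FPKM minimum, median-of-ratios scaling, quantile normalization and each mouse left out.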

Additional observations from a re-analysis of the deposited data

How the results depend on the processing

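In PRF 50 vs. HFD, 9 complement genes were called higher and 2 lower. Without a minimum level, 1 was called higher, C6, among 16525 genes tested, with changed SEs as well. Over all genes, 38 were called higher in this fit, against 144 in the main fit. The number called lower was 1 with all 9 mice in 1 fit, where C1rb lost its call, and 0 with a minimum of 10 FPKM, which removed C1rb and C1s2 from the test. Leaving out each mouse gave 1 to 9 genes called higher and 1 to 2 lower, while calls over all tested genes ranged from 4 to 94 higher and 11 to 148 lower, against 144 and 218 with all 6 mice. In HFD vs. ND, 2 were called lower and 0 higher. Without a minimum level 1 was called lower, beside 15 of all genes (63 in the main fit), and leaving out each mouse gave 1 to 2 lower and 0 to 2 higher. In PRF 50 vs. ND, 1 was called higher and 0 lower, with 2 higher with all 9 mice in 1 fit (C1qb added) and 0 to 1 when each mouse was left out. Over all tested genes, the fit of all 9 mice called 50 higher, against 16 in the main fit. Fewer mice or more genes tested account for part of these losses by construction, and any other cause was not tested.

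The other alternatives left each count of complement genes called within 1.5 times its main value. Counts over all tested genes moved further in some fits of PRF 50 vs. HFD. Quantile normalization called 132 lower, against 218 in the main fit, and a minimum of 10 FPKM called 49 higher, against 144. Of 178 recomputed log2 fold changes of the 14 called values, 126 kept their direction and call, 52 kept their direction without the call, and 0 changed direction. C6 in PRF 50 vs. HFD and HFD vs. ND kept its call in every fit. C1s2 in PRF 50 vs. HFD kept its call in every fit that tested it, but a minimum of 10 FPKM removed it. It passed the main minimum only through the HFD mice (7.10 FPKM, compared with 0.0074 in the PRF 50 mice), so its kept call is no sign of stability. With a pseudocount of 0.1, the log2 fold changes of C1rb and C1s2 in PRF 50 vs. HFD grew by over 2 times with their calls kept, so their size depends on the scale and is not given. Of 80 values not called, 20 changed sign and 9 were called under at least 1 alternative. No paired analysis was possible because each mouse was in 1 group only and the labels give no link between mice of different groups. Groups of 3 mice and unknown counts limit all calls.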
